A study of Mus musculus with 12 samples.

Results

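The genes described here encode the machinery that copies DNA in the S phase of the cell cycle, together with the cyclins and the E2F factor that open that phase. They were listed by name, and each gene was found through the platform annotation of the array, which named a probe for 43 of the 45 listed genes, out of 17742 genes named on the array. For Pcna, the gene of the sliding clamp, and Tyms, that of thymidylate synthase, the annotation named no probe, and they were not analysed here. Where a gene had several probes, the one with the highest mean over the 12 arrays stood for it.

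The samples were whole hearts of mice at postnatal day 8 on a C57bl/6 X 129 hybrid background. The source label calls the tissue embryonic, while the stage label and the protocol give the postnatal day used here. The first group was the Salvador mutant (Salv CKO), the second was the wild-type Control, and no treatment is named for either. Each group held 2 biological samples, and each sample was hybridised to 3 technical arrays. Which Cre driver was used, which part of the gene was deleted and whether animals were pooled is not given in the labels. Sav1, the gene of the Salvador scaffold protein, did not separate the groups, with log2(intensity + 1) levels of 8.06 (labelled Salv CKO 1) and 8.52 (labelled Salv CKO 2) beside 8.75 (labelled Control 1) and 8.08 (labelled Control 2). The groups are therefore named by their labels throughout. The 5 defining heart muscle markers measured (Tnnt2, Tnni3, Actn2, Pln and Nppa) were bright in every sample, at log2 levels from 14.68 to 15.35.

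Before S phase, the origin recognition complex and its partners load the MCM helicase onto DNA, and Cdc45 and the GINS complex then switch it on. The clamp loader, primase and polymerases build the new strands, ribonucleotide reductase and its neighbours supply the nucleotides, and E2F factors drive the transcription of many of these genes. In the mouse heart, muscle cells go through a last round of DNA synthesis in the first days after birth and then largely leave the cycle, and the Hippo pathway restrains their growth through Yap1 and Wwtr1.

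As a group, the replication genes did not part the labelled genotypes. Of the 43 measured genes, 24 had a higher mean in Salv CKO and 19 a lower one, or 55.8% positive against 46.9% of all 17742 genes. The median difference, Salv CKO minus Control, was 0.018 on the log2(intensity + 1) scale, against -0.021 over all genes. None of the 43 passed an unadjusted p of 0.05 in limma (smallest 0.0762, for Rrm1), where 3.32% of all genes did. After Benjamini-Hochberg adjustment 0 of 26423 probes passed a threshold of 0.05, or 0%, and 1047 probes lay under an unadjusted p of 0.05.

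The direction of the group as a whole depended on how the arrays were scaled. With each array centred on its median, 12 of 43 were positive (27.9%, against 36.4% of all genes) and the median was -0.089, against -0.11 over all genes. With no scaling between arrays, 31 were positive (72.1%, against 61.5%) and the median was 0.10, against 0.081. Under each scaling the members' median stayed close to that of all genes, and only differences larger than these shifts can be read apart from the scaling.

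The data also bound the size of a change on the log2(intensity + 1) scale. The 95% interval of the difference came from the limma fit with 4.6 degrees of freedom. It lay within a 2-fold change in either direction for 35 of 43 members, against 10394 of all 17742 genes. It reached past 2-fold for Orc2, Gins3, Gins4, Pola1, Pold1, Rrm1, Tk1 and Uhrf1. Among the 35 are Cdc6, Orc1 and Orc3, at mean deposited intensities of 5.67 to 20, where this scale understates a fold change. The interval held 0 for every one of the 43. A p above the threshold does not show that the groups were alike, and with 2 samples against 2 an exact permutation test cannot go below p = 0.333.

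**Figure D1:**
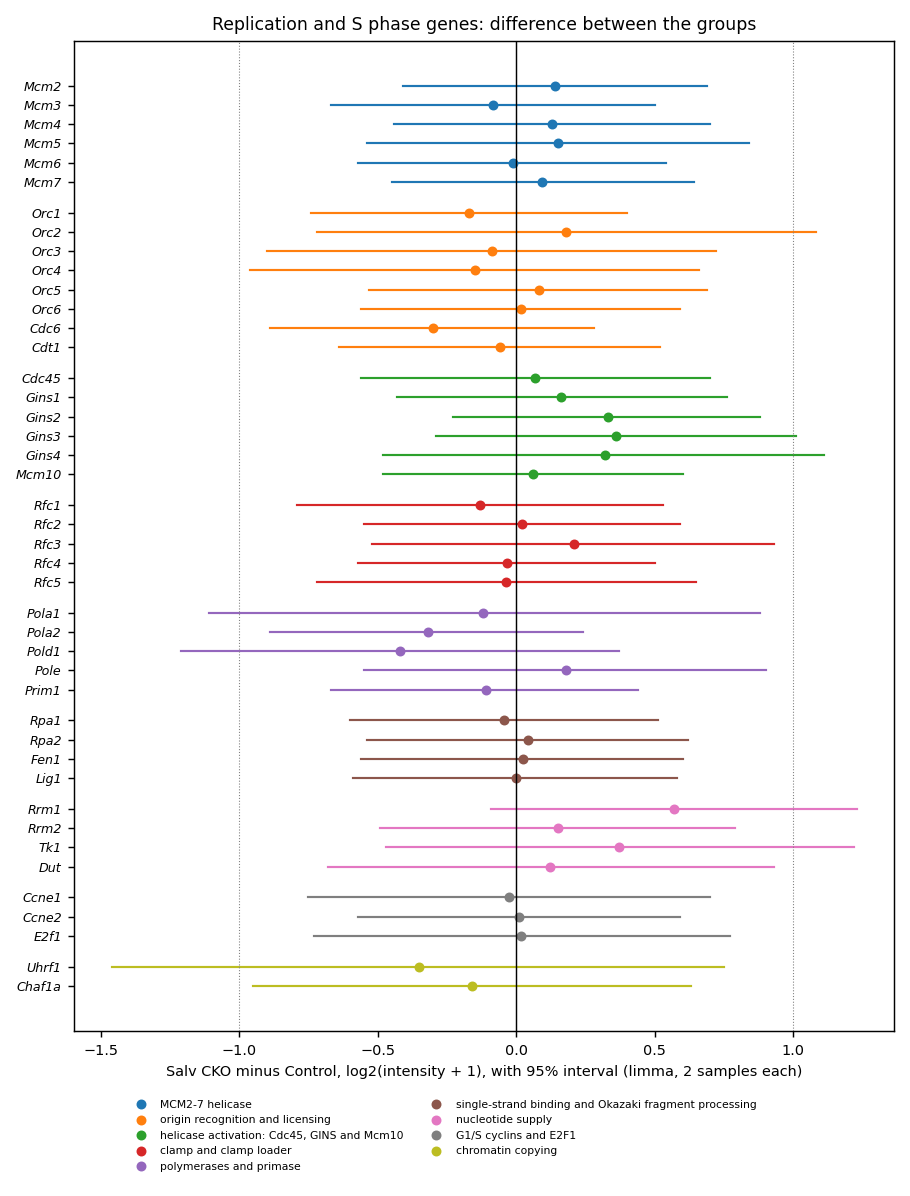
Each row is 1 of the 43 measured genes, coloured by role; the point is the difference Salv CKO minus Control on the log2(intensity + 1) scale and the line its 95% interval from limma (2 samples a group), with dotted lines at a 2-fold change. All intervals cross 0, Rrm1 lies farthest to the right at 0.57 and Pold1 farthest to the left at -0.42.

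Many of these genes share a feature that had no part in listing them, the binding letters of E2F in the promoter. In the RefSeq promoter table of GRCm38.p6, which spans 250 bases before to 50 after a gene's start, 38 of the 45 listed genes had an entry. The letters TTTCCCGC, TTTCGCGC, TTTGGCGC or TTTGCCGC, on either strand, stood in the promoters of 14 of these 38 genes (36.8%), against 704 of all 27025 genes with a promoter (2.6%). They were found in 17 of 37 other replication genes (45.9%) and in 1 of 30 genes of the G2 and M phases (3.33%). A match is a description of the letters, and no match says only that they are not in this window.

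The promoters below show the 250 bases before the start of 5 members with a match and of the members Rrm1 and Pola2, which have none there. Rrm1 had the largest positive difference of all members, and Pola2 was lower in Salv CKO on every array. Capitals mark the matched letters. Mcm7 and Uhrf1 each have another promoter entry, not printed, with 0 matches in the 250 bases before its start. In Mcm6 there are 3 matches, of which the first 2 overlap on opposite strands.
Mcm6, chr1:128359706-128359955, minus strand: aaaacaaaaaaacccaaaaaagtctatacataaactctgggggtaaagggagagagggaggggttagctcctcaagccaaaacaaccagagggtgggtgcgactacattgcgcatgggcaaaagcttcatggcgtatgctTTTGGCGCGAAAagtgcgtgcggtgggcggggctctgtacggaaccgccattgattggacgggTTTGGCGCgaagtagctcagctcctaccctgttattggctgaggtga
Mcm7, chr5:138171884-138172133, minus strand: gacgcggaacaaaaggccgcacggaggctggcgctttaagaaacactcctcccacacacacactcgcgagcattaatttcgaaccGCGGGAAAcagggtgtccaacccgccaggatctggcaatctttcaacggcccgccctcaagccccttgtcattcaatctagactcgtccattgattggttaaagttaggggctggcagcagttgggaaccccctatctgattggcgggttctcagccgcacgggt
Gins3, chr8:95633309-95633558, plus strand: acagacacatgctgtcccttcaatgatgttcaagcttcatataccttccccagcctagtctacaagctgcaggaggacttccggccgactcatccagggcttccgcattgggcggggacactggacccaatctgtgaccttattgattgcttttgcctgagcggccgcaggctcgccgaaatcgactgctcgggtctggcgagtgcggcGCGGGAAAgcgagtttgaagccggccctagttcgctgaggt
Cdc6, chr11:98907901-98908150, plus strand: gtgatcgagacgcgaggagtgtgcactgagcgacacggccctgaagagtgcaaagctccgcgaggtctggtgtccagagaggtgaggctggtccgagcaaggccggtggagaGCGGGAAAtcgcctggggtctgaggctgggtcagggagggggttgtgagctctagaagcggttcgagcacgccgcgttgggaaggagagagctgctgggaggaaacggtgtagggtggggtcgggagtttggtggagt
Uhrf1, chr17:56304063-56304312, plus strand: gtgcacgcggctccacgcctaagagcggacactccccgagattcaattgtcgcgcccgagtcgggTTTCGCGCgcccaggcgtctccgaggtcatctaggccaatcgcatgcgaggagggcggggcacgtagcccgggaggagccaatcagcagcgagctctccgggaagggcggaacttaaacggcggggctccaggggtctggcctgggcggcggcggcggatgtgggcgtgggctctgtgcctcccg
Rrm1, chr7:102441445-102441694, plus strand: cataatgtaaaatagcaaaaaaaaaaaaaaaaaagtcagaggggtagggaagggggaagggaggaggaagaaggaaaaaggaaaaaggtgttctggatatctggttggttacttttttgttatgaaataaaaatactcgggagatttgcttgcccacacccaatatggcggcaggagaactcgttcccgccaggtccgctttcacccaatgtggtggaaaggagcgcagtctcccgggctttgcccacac
Pola2, chr19:5964207-5964456, minus strand: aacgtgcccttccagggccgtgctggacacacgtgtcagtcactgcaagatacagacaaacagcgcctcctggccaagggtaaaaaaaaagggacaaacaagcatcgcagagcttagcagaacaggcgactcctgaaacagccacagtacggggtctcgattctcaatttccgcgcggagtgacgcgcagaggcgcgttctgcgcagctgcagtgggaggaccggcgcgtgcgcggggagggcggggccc

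The CCAAT box and the CHR element (TTTGAA, the cell cycle genes homology region of mitotic promoters) were more frequent in the G2 and M genes than in the members. CCAAT stood in 23 of the 38 members (60.5%), in 24 of 30 G2 and M genes (80.0%) and in 41.1% of all genes. TTTGAA stood in 4 of the 38 members (10.5%), in 11 of 37 other replication genes (29.7%), in 22 of the 30 G2 and M genes (73.3%) and in 20.2% of all genes. Counted only in the 250 bases before the start, TTTGAA was in 10.5% of members, 33.3% of G2 and M genes and 18.3% of all genes. Counted per promoter, since a gene can have several starts, E2F letters were in 2.26%, CCAAT in 37.4% and TTTGAA in 17.9% of 32851 promoters. Overlaps between different motifs were not removed.

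Members with and without E2F letters each had differences in both directions. Of the 14 measured members with the letters, 4 were positive, where 46.9% of all genes were. Their median was -0.072 and their range from -0.42 (Pold1) to 0.36 (Gins3). Of the 22 measured members with a promoter and no such letters, 13 were positive, with a median of 0.021 and a range from -0.32 (Pola2) to 0.57 (Rrm1). These ranges overlap over most of their length. Mcm4, Gins1, Gins2, Gins4, Rfc2, Pole and Ccne2 had no promoter entry and are in neither count, and all of them were positive. A link between the letters and the direction was not tested.

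**Figure D2:**
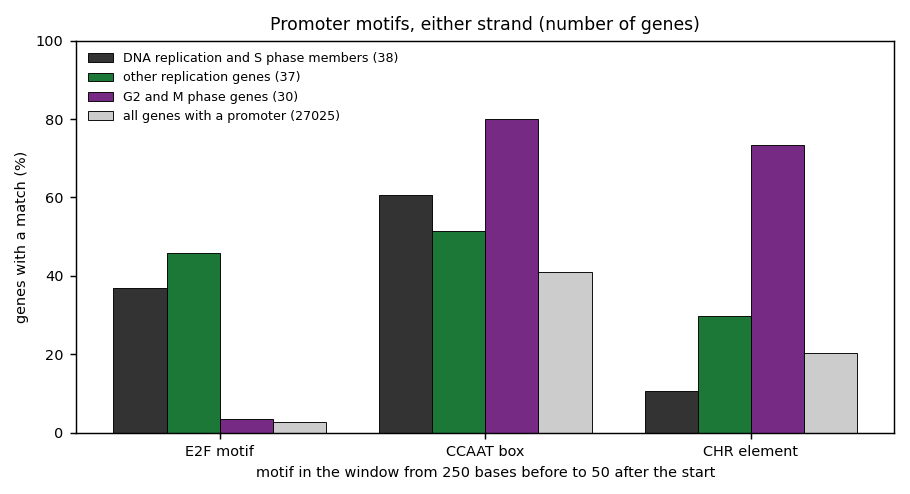
Bars give the percent of genes whose promoter window holds E2F letters, a CCAAT box or a CHR element on either strand, for the members, other replication genes, G2 and M phase genes and all genes with a promoter. E2F letters are in 36.8% of members and 3.33% of G2 and M genes, while the CHR element is in 10.5% and 73.3%.

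The supply of nucleotides held the largest difference. All 4 measured genes were positive, with a median of 0.26. The count was 3 of 4 without Salv CKO 2 (median 0.29), without Control 1 (0.18), without Control 2 (0.50) or with median centring (0.28). Rrm1, the large subunit of ribonucleotide reductase, which makes deoxyribonucleotides, had log2 intensities of 7.81 and 8.17 in Salv CKO, against 7.29 and 7.54 in Control. Both Salv CKO samples lay above both Control samples, and so did every Salv CKO array above every Control array. The difference was 0.57 ± 0.25 (SE), or 1.49-fold, with an interval from -0.091 to 1.23 (limma, adjusted p = 0.999). Groups without overlap were seen in 13 of 43 members, 7 higher and 6 lower in Salv CKO, against 30.7% of all genes, so this count is close to that of the array as a whole. Without any 1 sample the difference in Rrm1 ran from 0.39 to 0.75. Rrm1 was the 1 member under an unadjusted p of 0.05 in limma with a pseudocount of 16, where 3.08% of all genes were, and without the dimmest 50% of probes, where 2.41% were. Its second probe, at deposited intensities of 3 to 54, gave 4.20 and 4.52 in Salv CKO against 4.44 and 3.26 in Control, a difference of 0.51 ± 0.45 with overlapping groups.

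Rrm2, the small subunit that pairs with Rrm1 and limits the enzyme in S phase, had 10.24 and 10.15 in Salv CKO and 10.24 and 9.85 in Control. Salv CKO 1 and Control 1 were level, and the difference was 0.15 ± 0.24. Tk1, the salvage kinase for thymidine, had 6.46 and 6.28 in Salv CKO, against 5.63 and 6.36 in Control. Only Control 1 was low, and the difference of 0.37 ± 0.32 became 0.0078 without Control 1 and 0.74 without Control 2. Dut, which removes deoxyuridine triphosphate, differed by 0.12 ± 0.30, with its highest and lowest levels at 6.27 in Salv CKO 2 and 5.67 in Control 1.

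Genes that switch on the helicase were also all positive, 6 of 6, with a median of 0.24. Without Control 1 the count was 5 of 6 and the median 0.031, and with median centring they were 4 of 6 and 0.10. Gins2, a subunit of the GINS complex, had 7.59 and 7.58 in Salv CKO, against 7.18 and 7.33 in Control. Its groups did not overlap, on samples or on arrays, and the difference was 0.33 ± 0.21 (1.25-fold). It ran from 0.25 to 0.40 without any 1 sample. Gins3 had 7.40 and 7.28 in Salv CKO, against 6.78 and 7.17 in Control, also without overlap of the samples, and differed by 0.36 ± 0.25. The second probe of Gins3, a dimmer one at deposited intensities of 16 to 45, pointed the other way at -0.41 ± 0.40, with 4.37 and 5.11 in Salv CKO against 5.51 and 4.79 in Control.

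Gins4 had 11.04 and 10.69 in Salv CKO, against 10.26 and 10.84 in Control. Control 1 alone was low, and the difference of 0.32 ± 0.30 was 0.026 without it. Gins1 had 8.19 and 8.04 in Salv CKO, against 7.82 and 8.08 in Control, a difference of 0.16 ± 0.23, and 0.036 without Control 1. Its second probe differed by 0.33 ± 0.48. All 4 GINS subunits were highest in Salv CKO 1 and lowest in Control 1. Over all 17742 genes, Salv CKO 1 was highest in 4300 and Control 1 lowest in 4864. Mcm10, which helps the loaded helicase to start, had 7.77 and 7.75 in Salv CKO and 7.66 and 7.74 in Control, and its difference was 0.060 ± 0.21. Cdc45, the third part of the active helicase, differed by 0.067 ± 0.24, and by -0.12 without Control 1.

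The MCM helicase subunits, which form 1 ring, stayed close together. Their differences ran from -0.084 (Mcm3) to 0.15 (Mcm5), with 4 of 6 positive (1 of 6 with median centring), and all 6 intervals lay within a 2-fold change. Mcm4 had 10.48 and 10.70 in Salv CKO, against 10.45 and 10.47 in Control, a difference of 0.13 ± 0.22. Mcm2 had 8.36 and 8.25 in Salv CKO, against 8.14 and 8.19 in Control (0.14 ± 0.21), and Mcm7 had 9.64 and 9.73 against 9.59 and 9.60 (0.092 ± 0.21). In these 3 subunits the groups did not overlap, but the gap between them was narrower than the spread between the Salv CKO samples. Mcm6 differed by -0.013, with an interval from -0.57 to 0.54, and Mcm3, Mcm5 and Mcm6 changed sign when 1 sample was left out.

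Origin recognition and licensing genes gave 3 of 8 positive and a median of -0.073. The direction turned without Salv CKO 2 (5 of 8, median 0.047) and with no scaling between arrays (5 of 8, median 0.075). Cdc6, which with Cdt1 loads the helicase, had 2.57 and 2.79 in Salv CKO, against 2.92 and 3.04 in Control. The groups did not overlap, but deposited intensities averaged only 5.67 to 7.0, and the difference of -0.30 ± 0.22 shrank to -0.10 with a pseudocount of 16. Cdc6 and Orc1 were the 2 members with mean deposited intensities below 20 in every sample. Orc1, the largest subunit of the origin recognition complex, had 4.21 and 4.09 in Salv CKO and 4.23 and 4.41 in Control, a difference of -0.17 ± 0.22 that was 0.067 with the median of technical arrays. Orc5 had 10 and 9.78 in Salv CKO and 9.68 and 9.93 in Control, and its groups overlapped (0.082 ± 0.23). Among the others, Orc2 differed by 0.18, Orc3 by -0.086, Orc4 by -0.15, Orc6 by 0.018 and the loading factor Cdt1 by -0.060. The second probe of Orc2 pointed the other way, at -0.27 ± 0.28.

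Of the polymerase and primase genes 1 of 5 was positive, and the median was -0.12. With no scaling between arrays 2 of 5 were positive and the median was -0.00026, and without 1 sample the median ran from -0.42 (without Salv CKO 2) to -0.041 (without Salv CKO 1). Pola2, the accessory subunit of DNA polymerase alpha, which starts each new strand together with primase, had 9.09 and 9.28 in Salv CKO, against 9.50 and 9.51 in Control. Neither the samples nor the arrays of the groups overlapped. The difference was -0.32 ± 0.21 (0.799-fold), with an interval from -0.89 to 0.24, and ran from -0.42 to -0.23 without any 1 sample. Prim1, the catalytic subunit of primase, had 7.77 and 7.92 in Salv CKO and 7.94 and 7.97 in Control (-0.11 ± 0.21). Its samples did not overlap, but its arrays did. Pola1, the catalytic subunit, differed by -0.12 ± 0.38, and its lowest and highest levels, 5.74 and 6.61, were both in Salv CKO. With Prim2, the other primase subunit and no member (-0.033), all 4 subunits of this complex were negative, 2 of them without overlap. Of all 17742 genes, 9421 were negative and 30.7% did not overlap, so 4 genes are too few to set apart from the array. Prim2 was added after its value was seen. With no scaling between arrays 2 of the 4 were positive (median 0.05), and likewise without Salv CKO 1 (median 0.012), where Pola1 was 0.32.

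Pold1, the catalytic subunit of DNA polymerase delta, had 5.93 and 6.02 in Salv CKO, against 6.72 and 6.06 in Control. The groups did not overlap, but Salv CKO 2 and Control 2 lay close together, and the difference of -0.42 ± 0.30 (0.75-fold) was -0.086 without Control 1. Pole, the catalytic subunit of polymerase epsilon, had 6.01 and 6.30 in Salv CKO and 6.22 and 5.74 in Control, with overlapping groups (0.18 ± 0.27).

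**Figure D3:**
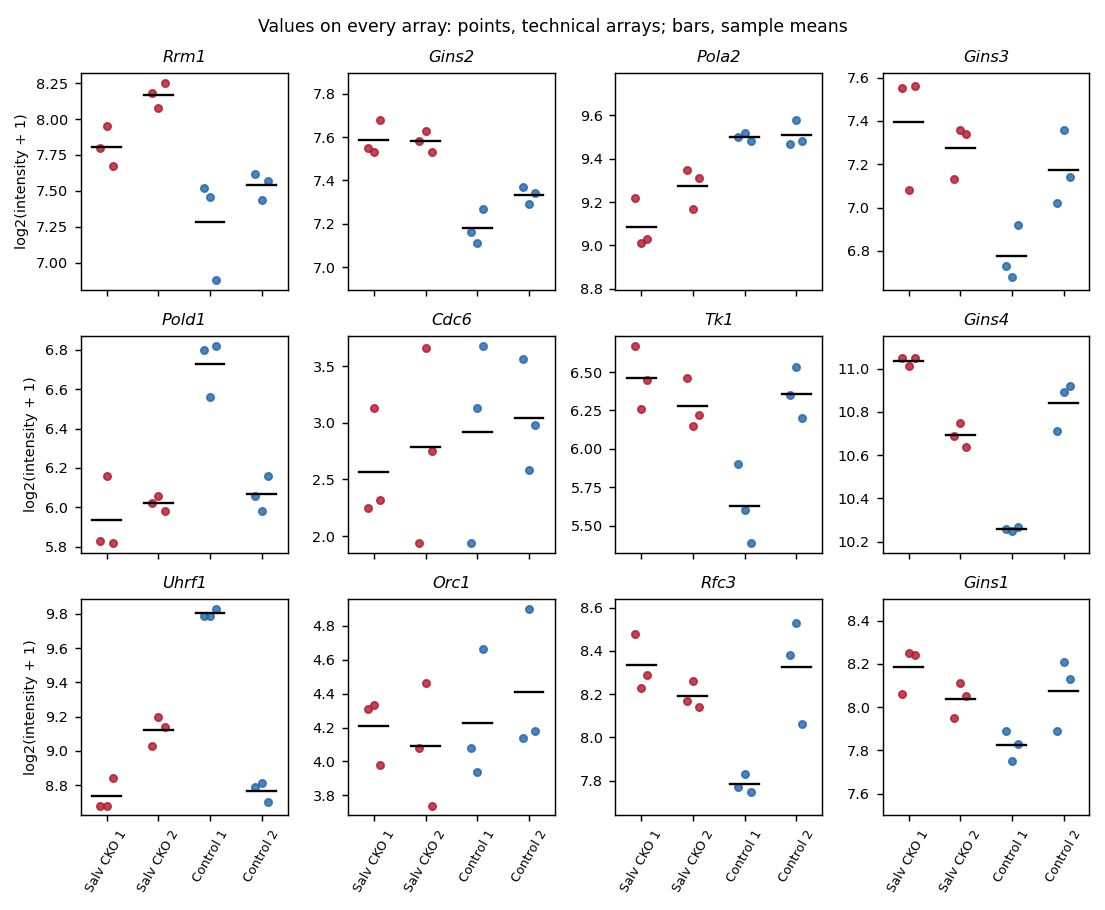
The 12 members with the smallest unadjusted p, with 1 panel each; points are the 3 technical arrays of each sample on the log2(intensity + 1) scale, bars the sample means, and Salv CKO (red) stands left of Control (blue). In Rrm1, Gins2 and Pola2 no array of one group reaches into the other, while in Uhrf1, Pold1, Tk1, Gins4 and Rfc3 the 3 arrays of Control 1 lie away from the rest.

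The clamp loader genes had small differences. Of the 5 replication factor C genes 2 were positive (4 with no scaling between arrays, 1 with median centring), with differences of -0.13 (Rfc1), 0.022 (Rfc2), 0.21 (Rfc3), -0.034 (Rfc4) and -0.036 (Rfc5). Rfc2 had 10.96 and 10.95 in Salv CKO and 10.83 and 11.04 in Control. Rfc4 had 9.04 in both Salv CKO samples and 9.05 and 9.09 in Control, without overlap, at a difference far below its SE of 0.20. Rfc3 had 8.33 and 8.19 in Salv CKO and 7.78 and 8.32 in Control, and was -0.063 without Control 1.

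Rpa1, which coats single-stranded DNA, had 12.35 and 12.44 in Salv CKO and 12.49 and 12.38 in Control. Its difference was -0.043 ± 0.21, with an interval from -0.60 to 0.51. Rpa2 differed by 0.043, the flap nuclease gene Fen1 by 0.023 and the ligase gene Lig1 by -0.0015. The groups overlapped in all 4 of these genes, and all 4 intervals lay within a 2-fold change.

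The regulators of S phase entry had a median difference of 0.0095, but it was 0.23 without Control 1 and -0.27 without Control 2. E2f1, the activating E2F factor, had 8.54 and 8.71 in Salv CKO and 8.89 and 8.32 in Control, so both its highest and its lowest level were in Control (0.018 ± 0.28). Its difference was 0.30 without Control 1 and -0.27 without Control 2. Ccne1 and Ccne2, the cyclins that activate Cdk2 at the start of S phase, differed by -0.027 ± 0.27 and 0.0095 ± 0.22, and Ccne1 by 0.23 without Control 1 and -0.28 without Control 2. The second probe of Ccne2 gave 6.62 and 6.43 in Salv CKO, against 6.08 and 6.29 in Control, without overlap and at 0.34 ± 0.22.

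Uhrf1, which brings the maintenance methylase to newly copied DNA, varied more between the Control samples than any other member differed between groups. It had 8.74 and 9.12 in Salv CKO, against 9.80 and 8.76 in Control. The difference of -0.35 ± 0.42 was 0.17 without Control 1 and -0.87 without Control 2. Chaf1a, a subunit of the chromatin assembly factor that places histones on new DNA, likewise had its highest level, 7.60, in Control 1 and its lowest, 6.96, in Control 2 (-0.16 ± 0.30, and 0.16 without Control 1).

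Samples of 1 group spread more widely than the arrays of 1 sample. For the members the median SD was 0.164 between samples and 0.0816 between arrays, against 0.241 and 0.123 over all genes. Control 1 was the highest or the lowest of the 4 samples in 30 of 43 members (69.8%), against 65.6% of all genes. It was lowest in 18 members, against 4864 of all 17742 genes. Among the 18 were all 6 helicase activation genes, 4 of the 6 MCM genes and 3 of the 4 measured nucleotide genes. Control 1 was highest in 12 members, against 6770 of all 17742 genes. Among the 12 were Uhrf1, Chaf1a, E2f1, Ccne1 and Pold1. Leaving Control 1 out changed the sign of 20 members. Without Control 2 the members at an unadjusted p under 0.05 in limma numbered 3 (Uhrf1, Pold1 and Tk1), against 9.14% of all genes in that fit. Control 1 alone then stood for its group and was assumed to vary like the Salv CKO samples, which supplied the spread. With all 12 arrays fitted and the sample as a random block, 3 members (Rrm1, Gins2 and Pola2) reached it, against 9.41% of all genes, and 0 passed after adjustment, in a fit where 61 probes passed. Neither count of 3 in 43 exceeds the share over all genes.

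**Figure D4:**
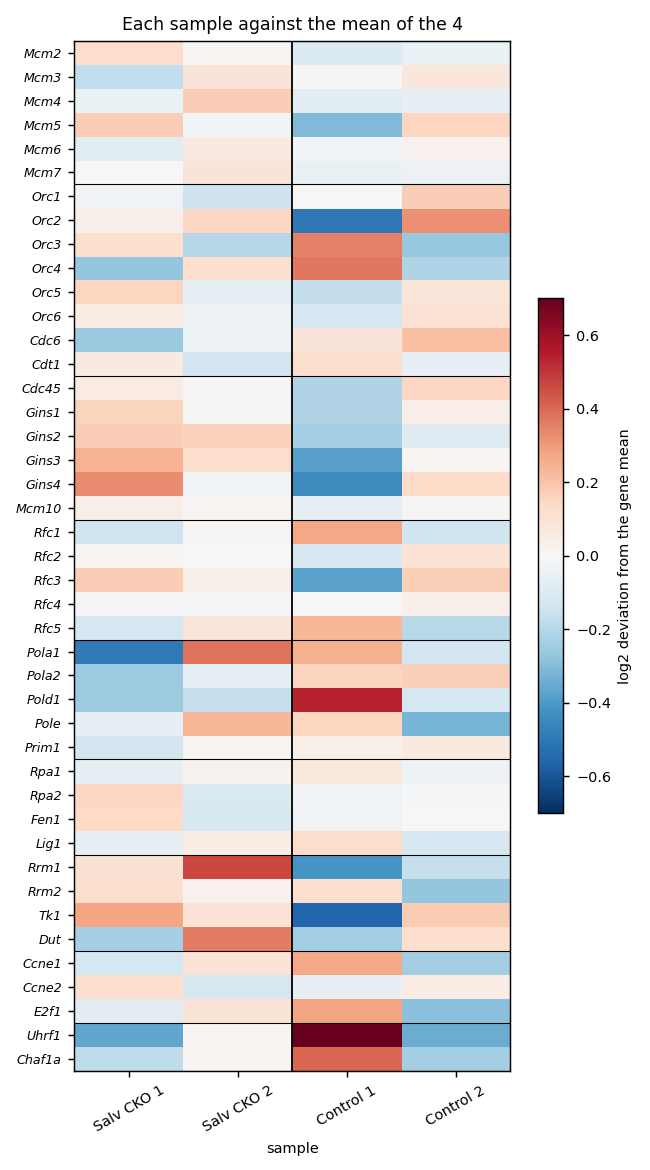
Rows are the 43 members in order of role, with lines between the roles, and columns the 4 samples; colour gives each sample's log2 deviation from the mean of the 4. Control 1 holds many of the strongest colours, blue for the GINS genes, Tk1 and Rrm1 and red for Uhrf1, Pold1 and Chaf1a.

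Markers of other cell types that a whole heart can hold also differed, between the labelled groups or between single samples. The summed intensity of the 4 measured erythroid markers was 9086 and 13658 in Salv CKO, against 10992 and 5276 in Control, and was lowest in Control 2. Most of each sum was Alas2, at log2 levels of 13.08 and 13.66 in Salv CKO, against 13.34 and 12.32 in Control. The 8 endothelial markers summed to 30899 and 32711 in Salv CKO and to 34647 and 31031 in Control, highest in Control 1. The 8 adipocyte markers summed to 21259 and 16399 in Salv CKO, against 27576 and 23024 in Control, with Fabp4 the largest part of each sum. Of the 8 markers 7 were lower in Salv CKO, with a median difference of -0.99 over the list. Lower without overlap were 5 of the 8, against 2931 of all 17742 genes. Lep, a dim gene, was higher without overlap, with 3.64 and 2.91 in Salv CKO, against 2.80 and 2.89 in Control. Salv CKO 2 was lowest in 7 of 8 markers and Control 1 highest in 6 of 8, against 3273 and 6770 of all 17742 genes. The widest difference was that of Cfd, with 5.51 and 4.22 in Salv CKO, against 6.77 and 6.57 in Control (-1.80 ± 0.48, limma adjusted p = 0.999). The 9 thymocyte and lymphocyte markers were dim, with sums of 533 and 385 in Salv CKO and 447 and 505 in Control. The 8 fibroblast markers summed to 81400 and 84945 in Salv CKO and 82124 and 84451 in Control. These sums hold Pdgfra, with 1.01 and 10.72 in Salv CKO, against 2.14 and 8.71 in Control (0.44 ± 3.87). Its technical arrays in Control 2 ran from 4.73 to 10.73, so small gaps between the fibroblast sums cannot be relied on. The 7 macrophage markers summed to 6417 and 5990 in Salv CKO, against 6466 and 6829 in Control. The macrophage sum of Salv CKO 2 holds Mrc1, whose technical arrays there ran from 3.25 to 10.62. The difference of Mrc1 was -0.96, and 0.24 with the median of technical arrays, so the order of the macrophage sums cannot be relied on. The 5 heart muscle markers summed to 169608 and 171994 against 174382 and 172988. The part of these markers in the differences of the replication genes was not tested. In whole hearts, fewer cells of a type and less RNA per cell cannot be told apart.

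Of 46 other replication genes measured on a list of 50, 28 were positive, the median was 0.027, and 1 passed an unadjusted p of 0.05 in limma, where 3.32% of all genes did. Groups did not overlap in 13 of the 46, 11 higher and 2 lower in Salv CKO. Over all 17742 genes 30.7% did not overlap, 2514 higher and 2931 lower, so the count of 13 is close to that share. Intervals reached past a 2-fold change in 17 of the 46, against 7348 of all 17742 genes. The direction of the median depended on single samples, at 0.10 without Control 1 and -0.07 without Control 2. The gene that passed was Dbf4, which activates the Cdc7 kinase that fires origins. It had 9.52 and 9.46 in Salv CKO, against 8.93 and 8.87 in Control, a difference of 0.59 ± 0.21 (1.51-fold, adjusted p = 0.999), without overlap of samples or arrays and from 0.56 to 0.62 without any 1 sample. Asf1b, a histone chaperone, had 8.01 and 7.76 in Salv CKO, against 6.62 and 7.49 in Control (0.83 ± 0.36, and 0.40 without Control 1). The next by p were Mcm9, a helicase of DNA repair (0.63 ± 0.30), Wdhd1, which ties the helicase to polymerase alpha (0.50 ± 0.26), and Ticrr, which helps to load Cdc45 (0.42 ± 0.23).

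Genes of the G2 and M phases were measured on the same arrays. Of 34 measured on a list of 36, 33 were positive, the median was 0.48, and 11 lay under an unadjusted p of 0.05 in limma (3.32% of all genes did), with 0 past the adjusted threshold. Hmmr, a spindle protein, had 10.03 and 9.99 in Salv CKO, against 9.30 and 9.34 in Control (0.69 ± 0.20). Top2a, which untangles copied chromosomes, differed by 0.78 ± 0.31 and Mki67, a marker of cycling cells, by 0.29 ± 0.22. Groups did not overlap in 23 of these 34 genes, against 13 of the 43 replication members and 30.7% of all genes. Ccna2, the cyclin that acts in both S phase and G2 and stands on the list of other replication genes, differed by 0.21 ± 0.44. Differences between the lists are given as descriptions, with no test.

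**Figure D5:**
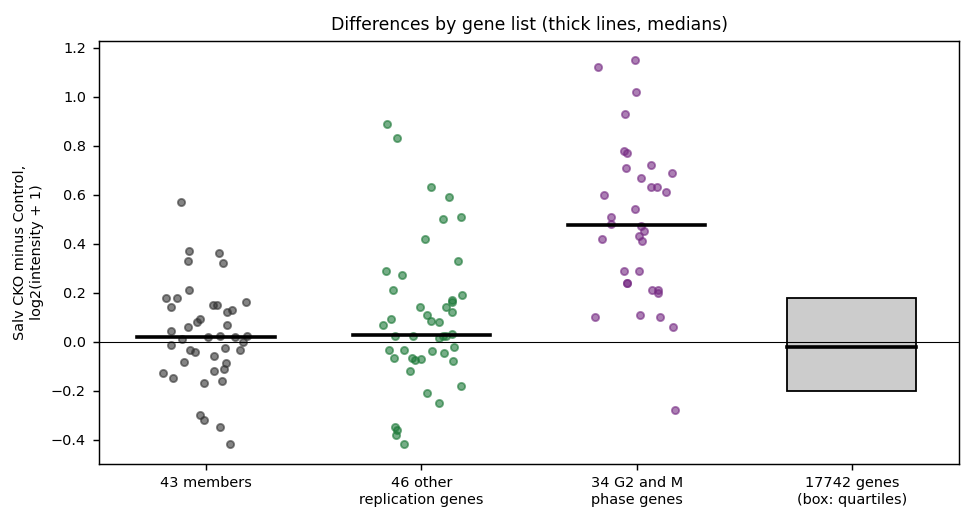
Points are genes and thick lines medians of the difference Salv CKO minus Control on the log2(intensity + 1) scale, for the 43 members, 46 other replication genes and 34 G2 and M phase genes; the box gives the quartiles over all 17742 genes. The medians are 0.018, 0.027 and 0.48, against -0.021 over all genes.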

How the data were processed

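RNA of whole hearts was amplified with an amino-allyl nucleotide, labelled with Cy5 and hybridised to 12 one-colour arrays, per the labels' protocols. The deposited values are probe intensities on a linear scale, whole numbers from -10 to 65474 over 26423 probes. Negative values mean that a background was taken off before deposit. How the arrays were scanned or scaled is not stated there. Array medians ran from 58 to 88, so the arrays were quantile normalized (limma 3.58.1, R 4.3.3), floored at the lowest positive value (0.0833) and taken to log2(value + 1), which understates changes of dim probes. Each sample's value is the mean of its 3 technical arrays. The number of samples, not a read depth, limits precision.

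Groups were compared by limma (lmFit, eBayes, 2.6 prior and 2 residual degrees of freedom; two-sided), with Benjamini-Hochberg adjustment over all probes. The labels do not say whether samples came from separate animals, so a p-value reflects only how far these samples vary. Gene names came from the platform annotation, brought up to date with RefSeq's GRCm38.p6 table: 18213 matched by symbol, 2126 by synonym and 38 not at all. No build is stated for the probes, so positions are printed for promoters alone. The members, lists and tests were chosen with earlier results of these data known. Values in every sample are given for the 16 members with the smallest p, for bright members whose groups do not overlap and for the brightest of each role. From the other lists, genes with the smallest p are named, with Ccna2, Mki67, Top2a and, after their values were seen, Rpa3, Dnmt1 and Prim2. The printed promoters were chosen after their letters were seen. Deviations of same-numbered samples ran against each other (correlation -0.253 over all probes and -0.482 over the brighter 50%), so the numbers were not used as pairs. Control 1 was highest with Salv CKO 2 next in 9 of 43 members and in 3366 of all 17742 genes. The cause of this order was not tested. Figures were drawn with matplotlib 3.10.9.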

Additional observations from a re-analysis of the deposited data

How the results depend on the processing

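With 2 samples a group, the SE of a member's difference had a median of 0.23, which limits the size of change that can be told from 0. The count of 0 probes past an adjusted p of 0.05 stayed at 0 except with median centring (10), no scaling between arrays (11) and a fit to all 12 arrays with sample as random block (61). With the replicate block it was 0, and likewise with a crossed pairing of the sample numbers, which was chosen after seeing the data. The count of 0 members at an unadjusted p under 0.05 was 1 (Rrm1) with a pseudocount of 16 or without the dimmest 50% of probes, 3 with the random block, and from 0 to 3 without 1 sample. It was 0 in the other settings. The 24 positive members became 12 with median centring, where the median over all genes is -0.11, and the median difference became -0.089 there and 0.10 without scaling. Gins3 turned to -0.024 when its 2 probes were averaged. Signs are little guide for most members: 33 of 43 changed sign in at least 1 of 15 settings, 27 of them when 1 sample was left out (20 without Control 1), and all but Gins3 had differences smaller than their SE. Mcm2, Cdc6, Gins1, Gins2, Gins4, Pola2, Pold1, Prim1, Rrm1 and Tk1 kept their sign in every setting run. Some of their differences were very small, such as -0.00026 in Prim1 with no scaling between arrays and 0.0078 in Tk1 without Control 1. Counting E2F letters only in the 250 bases before the start left 10 of 38 members with a match. A sign change was counted as a reversal only where the difference exceeded its SE, a rule chosen after seeing the data. The cause of these changes was not tested.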

Other observations

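Some replication genes outside the member list varied with single samples. Rpa3, the smallest subunit of the protein that coats single-stranded DNA, had 9.61 and 8.06 in Salv CKO, against 7.84 and 8.05 in Control, and its difference was 0.89 with all samples and 0.11 without Salv CKO 1. Ccna2 was high in the samples numbered 2, with 9.85 and 10.57 in Salv CKO, against 9.53 and 10.47 in Control. Dnmt1, the maintenance methylase that Uhrf1 brings to new DNA, had 7.02 and 7.34 in Salv CKO, against 8.01 and 7.18 in Control, and was highest in Control 1 like Uhrf1. Of the 46 other replication genes, Control 1 was highest in 23 and lowest in 14, against 6770 and 4864 of all 17742 genes.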
